A study of Mus musculus with 4 samples.

Results

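The translation initiation factors (eIF1 to eIF6) and elongation factors (eEF1 and eEF2) were followed as 1 group of genes in differentiating mouse P19 cells. Members were the probe sets whose single annotated symbol begins with Eif1 to Eif6, Eef1 or Eef2, with the eIF2 kinases (Eif2ak) left out. This gave 109 probe sets of 48 genes, among 22626 probe sets and 12393 genes with 1 symbol on the array. Each gene was represented by its leading probe set, the one with the highest mean signal. Of the 48 members 47 passed the filter on low signal, as did 8930 genes in all, and the member below it was Eef2kmt, which read 1.90 to 5.90 on the 4 arrays. The members include methyltransferases of the elongation factors (Eef1akmt1, Eef1aknmt, Eef2kmt), the eEF2 kinase gene Eef2k and the eIF4E partners and inhibitors, because the symbols alone chose them.

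P19 is an embryonal carcinoma line that forms neural cells when aggregated with retinoic acid. The control was the unmodified line, and the other line constitutively expressed human LIN28A, an RNA-binding protein known for blocking let-7 maturation and for binding many mRNAs. Each line had spent 4 days as aggregates with all-trans retinoic acid at 5e-07 M. RNA of each was measured on 2 arrays, called number 1 and number 2 after the labels. The labels describe no vector control, no promoter for LIN28A and no number of clones for that line. They also do not say that the repeats were separate cultures, so p-values measure the spread between arrays, which may be technical.

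During initiation eIF2 delivers the initiator tRNA to the small ribosomal subunit, eIF3 holds the assembly together, and eIF1, eIF1A and eIF5 govern the choice of the start codon. The eIF4 group binds the mRNA cap, unwinds the leader and links it to eIF3, and eIF5B joins the large subunit. In elongation eEF1A brings aminoacyl-tRNA to the ribosome, the eEF1B subunits recharge it with GTP, and eEF2 drives translocation. Many mRNAs of the translation machinery begin with a run of pyrimidines, the terminal oligopyrimidine (TOP) motif, through which their translation follows nutrient and growth signals.

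Start regions are shown for Eef1a1, the elongation gene with the highest mean signal, and for members lower or higher on both LIN28A arrays. The lower ones are Eif3f and Eif1b and the higher ones Eif2b5 and Eif3b, 1 of each with a pyrimidine run and 1 without. The regions are RefSeq sequences of the mouse build GRCm38.p6, on the transcript's strand. Each runs from 20 bases before the annotated start through the first 20 bases annotated as transcribed. Whether transcription began at these starts in these cells was not tested. Capitals mark every run of 8 or more pyrimidines (C or T).
Eif3f (chr7:108934395-108934434, plus strand): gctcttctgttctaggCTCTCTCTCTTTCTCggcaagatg
Eif1b (chr9:120492586-120492625, plus strand): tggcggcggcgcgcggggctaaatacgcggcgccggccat
Eif2b5 (chr16:20498797-20498836, plus strand): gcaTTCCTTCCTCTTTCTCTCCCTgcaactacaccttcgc
Eif3b (chr5:140419285-140419324, plus strand): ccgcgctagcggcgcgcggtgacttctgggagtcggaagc
Eef1a1 (chr9:78481705-78481744, minus strand): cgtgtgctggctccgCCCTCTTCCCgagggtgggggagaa

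The Eif2b5 window holds a run of 21 pyrimidines, the Eif3f window 1 of 15 and the Eef1a1 window 1 of 10, and the longest runs in the Eif3b and Eif1b windows are 5 and 2. RefSeq starts were matched for 38 members, of which 11 (28.9%) held such a run in at least 1 start window, against 4965 of 27025 genes (18.4%). The search covered the transcript's strand alone. The run was found in the window of 1 of 4 matched members that were lower on both LIN28A arrays, 1 of 3 that were higher and 9 of 31 with overlapping groups. A run counted anywhere in the window, also before the annotated start, so these shares are not shares of TOP mRNAs. The marked runs shown above all span that start, that of Eif2b5 lying mostly before it. Whether any of them is a TOP motif was not tested.

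No factor passed the test, and the group as a whole did not lie to 1 side. At an adjusted p under 0.05 (limma, Benjamini-Hochberg over 15838 probe sets), 0 members passed on the higher side and 0 on the lower, where the background over all probe sets was 0% in each direction. At an unadjusted p under 0.05 there were also 0 members in each direction, against 0.493% of all genes higher and 1.34% lower. Every adjusted p of the members was 1, and a two-sided exact permutation test of 2 arrays against 2 cannot go below 0.333. Of the 48 members 20 had a pooled difference above 0 and 28 below, where 4025 and 4905 of 8930 genes did. The median log2 difference of the members (LIN28A minus control, on log2(value + 16)) was -0.08, beside -0.04 over all genes. The members' median was -0.02 under quantile normalization (all genes 0.01) and 0.05 under median centring (all genes 0.09), and it was 0.02 without control 2, 0.04 without LIN28A 2 and -0.16 without LIN28A 1, so its sign was not settled. Fits without 1 array, here and below, had no block and unequal numbers of arrays per line. Part of the difference between number 1 and number 2 therefore entered them. A sign that turned there need not have turned within either number.

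The 2 numbers differed in how the members lay. Within number 1 the members' median was 0.07 and 22 of 48 (45.8%) lay below 0, where 58.7% of all genes did. Within number 2 the median was -0.18 and 31 of 48 (64.6%) lay below 0, where 48.1% of all genes did. Under median centring the medians were 0.27 and -0.12, with 9 of 48 (18.8%) below 0 in number 1, where 38.1% of all genes did, and 28 of 48 (58.3%) in number 2, where 42.2% did. Under quantile normalization the counts below 0 were 19 (39.6%, all genes 51.2%) and 28 (58.3%, all genes 46.1%). In both numbers 13 members (27.1%) lay higher, beside 25.7% of all genes, and 18 (37.5%) lay lower, beside 32.6% of all genes. A further 13 were higher in number 1 and lower in number 2, and 4 the reverse. The difference of these 2 patterns was not tested.

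**Figure D1:**
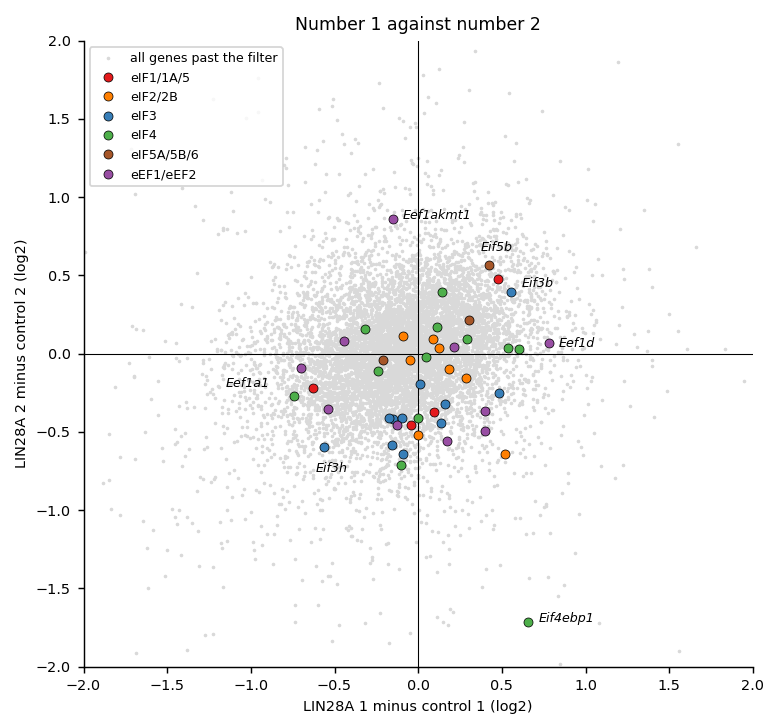
Log2 difference between LIN28A and control within number 1 (x axis) and number 2 (y axis), 1 point per gene, with the 48 factors coloured over all genes past the filter. Both axes stop at -2 and 2, which leaves 44 genes outside the plot, and the factors fill all 4 quadrants, with 13 higher and 18 lower in both numbers.

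For 5 members both LIN28A arrays exceeded both control arrays (10.4%, where 11.5% of all genes did) and for another 5 both read lower (10.4%, where 16.6% did), so neither count exceeded the background. The higher ones were Eif2b5, Eif3b, Eif5b, Eif6 and Eef1d, and the lower ones Eif1b, Eif3f, Eif3h, Eif4b and Eef1e1. Under quantile normalization 8 of 48 were higher (14.5% of all genes past the filter) and 5 lower (13.7%), and under median centring 7 were higher (19.9%) and 1 lower (9.03%). The 8 include Eef2kmt, the member below the filter. The same 5 higher members were found under all 3 scalings, but of the lower ones this held for Eif1b alone. Median centring moved the median of all genes from -0.04 to 0.09, a shift of 0.13 (log2). Scaling also turned larger differences of single genes, as given with each below.

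**Figure D2:**
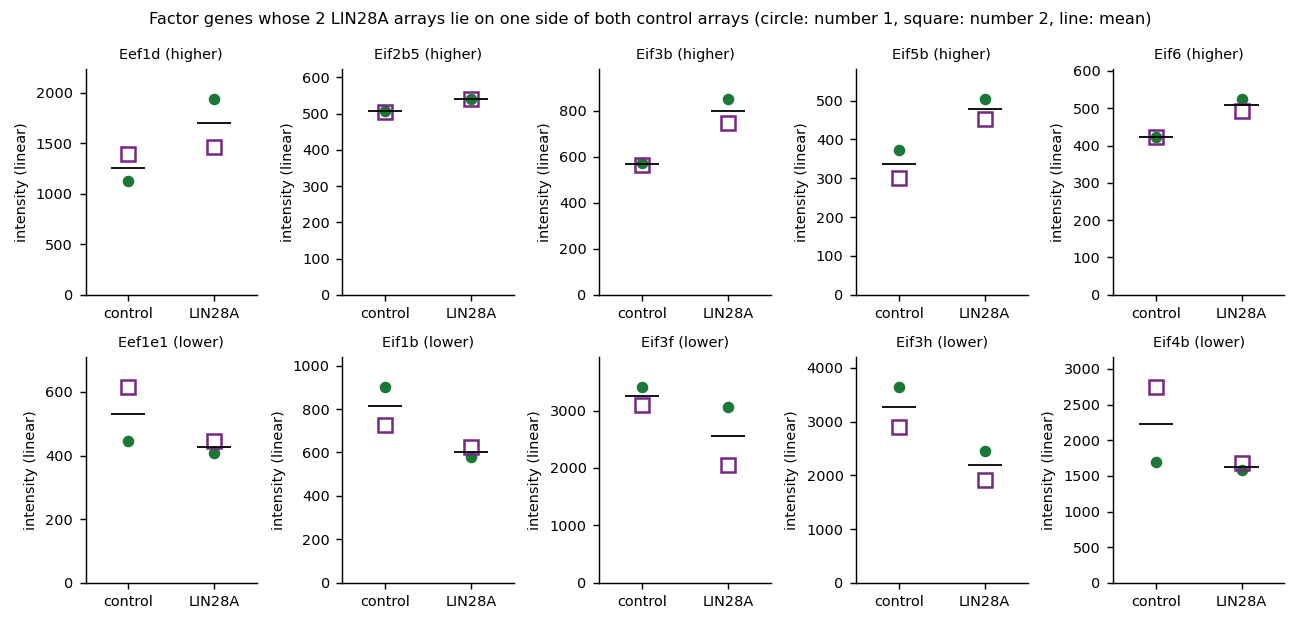
Deposited intensity (linear axis from 0) in each line for the 10 factors whose LIN28A arrays both lay above or both below both control arrays, with number 1 as filled circles, number 2 as open squares and a line at the mean of 2 arrays. Eif3b and Eif5b have clear gaps between the lines, whereas Eif2b5 spans 506 to 541 over all 4 arrays.

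Of the factors that select the start codon, Eif1b and Eif1ax lay apart in opposite directions. Eif1b, a close relative of eIF1, read 903 and 728 on the control arrays and 579 and 623 on the LIN28A arrays. Both LIN28A arrays were the lower ones, with a log2 difference of -0.42 ± 0.29 (SE; -0.63 in number 1 and -0.22 in number 2, or -0.27 without control 1). Here and below SE is limma's moderated standard error, which draws each gene's spread toward that of all probe sets. Eif1ax, the X-linked eIF1A gene, read 1009 and 666 in control against 1412 and 935 in LIN28A. Each LIN28A array exceeded its same-numbered control by 0.48, yet the groups overlapped because number 1 read above number 2 in both lines. Its other probe set lay at 0.09 and -0.04, and the pooled 0.48 was 0.25 with both averaged, 0.19 without control 2 and 0.19 without LIN28A 1. Eif5, the GTPase activator of eIF2, read 987 and 1765 in control against 957 and 1283 in LIN28A. Its difference of -0.25 ± 0.39 (SE) came mainly from control 2, without which it was 0.16. The median of these 4 genes was -0.20, with 0.02 in number 1 and -0.30 in number 2, and it was 0.14 without control 2.

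The eIF2 and eIF2B genes had no common direction, with 5 above and 3 below 0. Their median was 0.03 over 8 genes, with 0.11 in number 1 and -0.07 in number 2, and 0.15 under median centring. Eif2b5, the catalytic subunit of the exchange factor eIF2B, read 507 and 506 in control against 541 and 541 in LIN28A, so the groups did not overlap although the difference was only 0.09 ± 0.27 (SE). That moderated SE is far above the spread of this gene's own arrays within each line. The other eIF2B genes measured, Eif2b1, Eif2b2 and Eif2b4, differed by 0.01 to 0.07 at their leading probe sets. A second Eif2b2 set lay at -0.34 in number 1 and -0.31 in number 2, and Eif2b4 at 0.29 and -0.16. Eif2s2, the beta subunit of eIF2, read 1455 and 2343 in control against 2095 and 1493 in LIN28A. The LIN28A array was the higher one in number 1 (0.52) and the lower one in number 2 (-0.64), and its 6 probe sets all did the same, at 0.04 to 1.47 and at -0.93 to -0.44. Its pooled difference of -0.06 was 0.07 under median centring, 0.28 without control 2 and 0.18 without LIN28A 2.

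The gamma subunit of eIF2 is encoded by the X- and Y-linked copies Eif2s3x and Eif2s3y, whose similar transcripts may share probe signal. Eif2s3x read 781 and 864 in control against 754 and 840 in LIN28A, overlapping groups with a difference of -0.04 ± 0.28 (SE) that was 0.08 under median centring. It was 0.03 without control 2 and 0.03 without LIN28A 1. Eif2s3y read 171 and 252 in control against 171 and 171 in LIN28A. Control 2 stood above the other 3 arrays, and the difference was -0.0039 in number 1 and -0.52 in number 2, or -0.001 pooled without control 2.

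Among the complexes eIF3 had the largest count of members below 0, 9 of 11, with a median of -0.25, where 4905 of 8930 genes lay below 0. Within number 1 the eIF3 median was -0.09 and 6 of 11 lay below 0, and within number 2 it was -0.41 and 10 of 11 lay below 0. Under quantile normalization the medians were 0.08 and -0.43 and under median centring 0.11 and -0.36, so the sign in number 1 turned with the scaling while 10 of 11 stayed below 0 in number 2. Without LIN28A 2 the pooled median was 0.06. The mRNAs of the octamer core that binds the ribosome (eIF3a, c, e, f, h, k, l and m, grouped after their values were seen) had medians of -0.09 in number 1 and -0.43 in number 2, with 5 of 8 and 8 of 8 below 0. The other 3 measured subunits (eIF3b, d and i) had medians of 0.01 and -0.19, with 1 of 3 and 2 of 3 below 0. The difference of these subsets was not tested.

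Eif3h, a core subunit with an MPN domain, read 3650 and 2907 in control against 2461 and 1920 in LIN28A. Both LIN28A arrays were the lower ones, by -0.57 in number 1 and -0.59 in number 2 (pooled -0.58 ± 0.31 SE), and this held at 1 probe set, since its other 2 were below the filter, with -0.26 when all 3 were averaged. Eif3f, its partner MPN subunit, read 3416 and 3089 in control against 3069 and 2057 in LIN28A. The groups did not overlap, but LIN28A 1 lay just under control 2, and the pooled difference of -0.37 ± 0.32 (SE) combined -0.15 and -0.58. Without LIN28A 2 the difference of Eif3f was -0.08 and that of Eif3h -0.40.

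Eif3b, the RNA-binding scaffold that carries the eIF3g and eIF3i subunits, went the other way. It read 574 and 563 in control against 852 and 746 in LIN28A. The LIN28A arrays both exceeded the control arrays, by 0.56 in number 1 and 0.39 in number 2 (pooled 0.48 ± 0.28 SE). Eif3i, the WD-repeat subunit held by eIF3b, read 4459 and 2523 in control against 4009 and 1884 in LIN28A. Number 1 read above number 2 in both lines, the groups overlapped, and the difference was -0.15 in number 1 and -0.42 in number 2, or 0.12 without control 1 and 0.26 without LIN28A 2.

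Further core subunits are given as chosen after their values were seen. Eif3e read 3979 and 2769 in control against 3732 and 1773 in LIN28A. Each LIN28A array lay below its same-numbered control, and so did all 3 probe sets past the filter, by -0.40 to -0.09 in number 1 and -0.64 to -0.58 in number 2. The pooled difference was 0.17 without LIN28A 2. Into that fit entered the difference between number 2 and number 1, which was -0.52 in control and -1.07 in LIN28A. Eif3a, the largest scaffold subunit, read 1235 and 1756 in control against 1729 and 1472 in LIN28A. Eif3c, its scaffold partner, read 2033 and 2169 in control against 2233 and 1594 in LIN28A. For both genes the LIN28A array was the higher one in number 1 and the lower one in number 2, at each of their 4 probe sets. The pooled difference of Eif3a was 0.11, or -0.14 without control 1, and that of Eif3c was -0.15, or 0.09 without LIN28A 2.

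**Figure D3:**
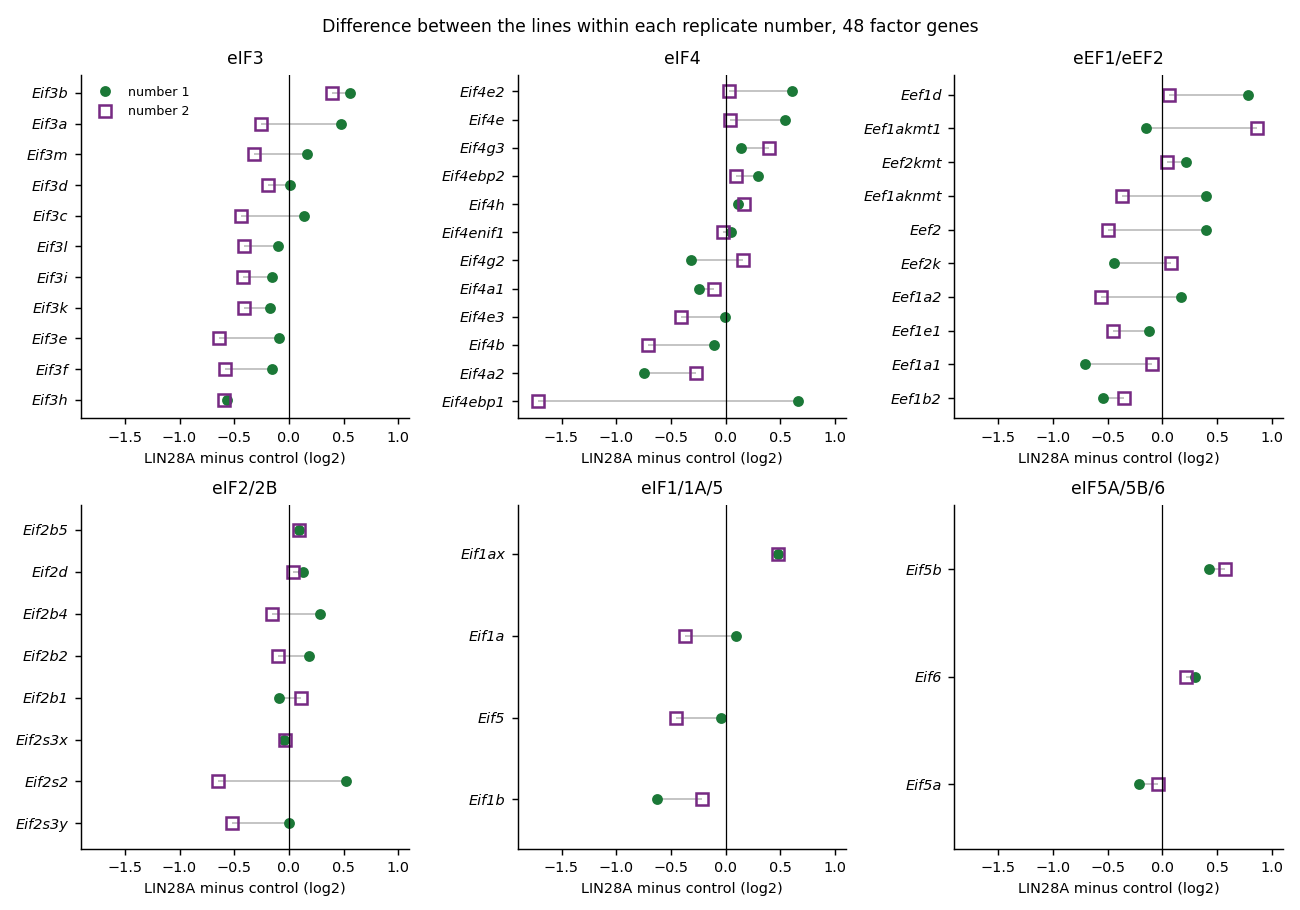
Log2 difference between LIN28A and control for the 48 factors by complex, with number 1 as filled circles and number 2 as open squares joined by a line for each gene. In eIF3, 10 of 11 squares lie below 0 and 6 of 11 circles do, and the longest line is that of Eif4ebp1, from 0.66 to -1.71.

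The eIF4 group had no common direction, with 6 members above and 6 below 0 and a median of -0.03 (0.08 in number 1, 0.005 in number 2). The median was 0.08 under quantile normalization and 0.09 under median centring. Eif4b, which stimulates the helicase, read 1697 and 2752 in control against 1577 and 1677 in LIN28A. Both LIN28A arrays were the lower ones and its 3 probe sets lay below 0 in both numbers, but the size came from control 2, with -0.10 in number 1 and -0.71 in number 2 (pooled -0.41 ± 0.34 SE, and -0.06 without control 2). Under quantile normalization and median centring its groups overlapped.

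The helicase paralogues Eif4a1 and Eif4a2 have similar sequences that a probe set may share. Eif4a1 read 4097 and 3195 in control against 3467 and 2958 in LIN28A, a difference of -0.18 ± 0.30 (SE) with overlapping groups. Its other probe sets read 436, 2171, 1157 and 2463, and 206, 2468, 503 and 2385, on control 1, control 2, LIN28A 1 and LIN28A 2. There the low array was control 1, so the sets of this gene disagreed, and the difference was 0.40 with the probe sets averaged, 0.006 under quantile normalization and 0.003 without control 1. Eif4a2 read 1469 and 2718 in control against 871 and 2255 in LIN28A. Each LIN28A array lay below its same-numbered control, by -0.74 and -0.27, within a larger gap between the numbers, and the pooled difference of -0.51 was 0.17 without LIN28A 1.

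Eif4e2, a cap-binding relative of eIF4E, read 478 and 398 in control against 734 and 407 in LIN28A. LIN28A 1 stood above the other 3 arrays, and the pooled difference of 0.32 ± 0.37 (SE) was -0.10 without that array and -0.003 with the 4 probe sets averaged. Eif4g2, a relative of the scaffold eIF4G that does not bind eIF4E, read 4963 and 2864 in control against 3982 and 3191 in LIN28A. Its difference of -0.08 ± 0.37 (SE) was 0.17 under quantile normalization, 0.05 under median centring and 0.31 without control 1.

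The widest split between the numbers was that of Eif4ebp1, which encodes the eIF4E inhibitor 4E-BP1 and, with the cap-binding protein gene Eif4e, was chosen after its values were seen. Eif4ebp1 read 249 and 934 in control against 403 and 273 in LIN28A. Control 2 stood far above the other 3 arrays, so the difference was 0.66 in number 1 and -1.71 in number 2 (pooled -0.53 ± 0.62 SE) and turned to 0.39 without control 2. Eif4e read 412 and 924 in control against 606 and 947 in LIN28A. Number 2 read above number 1 in both lines, and the difference of 0.54 in number 1 was 0.04 in number 2, or -0.28 pooled without control 1.

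The genes of eIF5B and eIF6 lay higher in LIN28A cells on both arrays. Eif5b, the GTPase that joins the large subunit, read 372 and 301 in control against 505 and 454 in LIN28A. The groups did not overlap, the difference was 0.43 in number 1 and 0.57 in number 2 (pooled 0.50 ± 0.29 SE), and its 3 probe sets lay above 0 in both numbers, at 0.16 to 0.69. Eif6, which keeps the large subunit from joining too early, read 423 and 423 in control against 525 and 493 in LIN28A. Both control arrays were nearly equal and below both LIN28A arrays, by 0.30 and 0.21 (pooled 0.26 ± 0.28 SE). Eif5a, the hypusine-bearing factor that helps peptide-bond formation at difficult residues, read 6329 and 3959 in control against 5469 and 3852 in LIN28A. Number 1 read above number 2 in both lines and the difference of -0.12 ± 0.37 (SE) was 0.22 under quantile normalization, 0.002 under median centring, 0.21 without control 1 and 0.13 without LIN28A 2, while its other probe set lay at 0.30 and 0.35. No probe set carried Eif5a2 as its single symbol.

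Of the 10 elongation genes 4 lay above 0 and 6 below, with a median of -0.12 (0.02 in number 1 and -0.22 in number 2) that was 0.08 without control 1, 0.04 under quantile normalization and 0.01 under median centring. Eef1a1, the main eEF1A gene, whose start window is shown above, read 11308 and 5648 in control against 6938 and 5299 in LIN28A. Control 1 stood far above the other 3 arrays, so the difference was -0.70 in number 1 and -0.09 in number 2 (pooled -0.40 ± 0.42 SE). It was 0.10 without control 1 and 0.03 under quantile normalization. Eef1a2, the paralogue known from neurons and muscle, read 37.7 and 73.5 in control against 44.5 and 44.8 in LIN28A. Control 2 was the high array there, and the difference of -0.19 was 0.18 without it.

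The eEF1B subunits, which recharge eEF1A, went apart. Eef1b2 read 6636 and 3203 in control against 4562 and 2508 in LIN28A. Each LIN28A array lay below its same-numbered control, by -0.54 and -0.35, within overlapping groups, and the pooled difference of -0.45 ± 0.48 (SE) was 0.08 without control 1. Eef1d, another of these subunits, read 1120 and 1396 in control against 1939 and 1460 in LIN28A. The LIN28A arrays both exceeded the control arrays, but LIN28A 2 by little, with 0.78 in number 1 and 0.06 in number 2 (pooled 0.42 ± 0.31 SE, and 0.22 without LIN28A 1). Of its other 2 probe sets, 1 lay at 0.78 and -0.01 and the other at 0.70 in both numbers, so the small difference in number 2 depended on the probe set.

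Eef1e1, an eEF1-related scaffold protein of the tRNA synthetase complex, read 447 and 617 in control against 409 and 446 in LIN28A. Both LIN28A arrays were the lower ones, LIN28A 2 just under control 1, with a pooled difference of -0.29 ± 0.31 (SE) that was -0.06 without control 2. Eef2 and the lysine methyltransferase gene Eef1akmt1, both chosen after their values were seen, split by number. Eef2 read 2297 and 4223 in control against 3033 and 2993 in LIN28A, so the LIN28A arrays lay between the control arrays, and its pooled difference of -0.05 was 0.39 without control 2, 0.05 under quantile normalization and 0.08 under median centring. Eef1akmt1 read 311 and 103 in control against 278 and 199 in LIN28A. Control 2 was the low array, the difference was -0.15 in number 1 and 0.86 in number 2, and the pooled 0.35 was -0.38 without control 2.

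Several probe sets of 1 gene often disagreed. Of the 26 members with over 1 probe set past the filter, 15 had all of them on 1 side of 0 and 11 had them on both sides, and 21 members had 1 probe set in all. Eif5b, Eif3e and Eif4b are examples where the sets lay on 1 side in both numbers, Eif2s2, Eif3a and Eif3c examples where each set turned between the numbers, and Eif4a1 and Eif5a examples where the sets disagreed within a number. The leading set was of the _x_at kind for 6 members and of the _s_at kind for 3, types whose probes can bind transcripts of related genes.

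**Figure D4:**
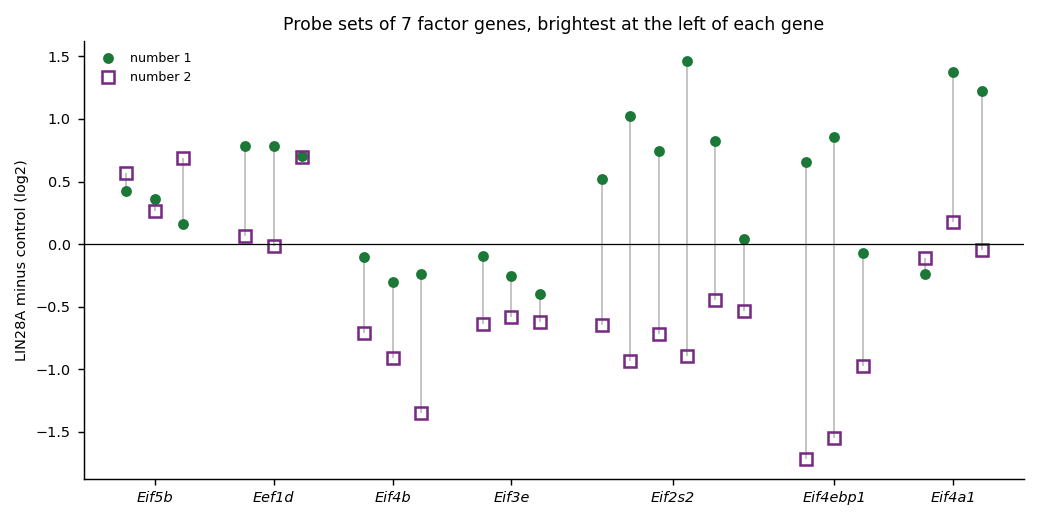
Log2 difference between LIN28A and control for each probe set past the filter of selected factors, with number 1 as filled circles and number 2 as open squares. All 6 Eif2s2 sets lie above 0 in number 1 and below 0 in number 2, and the 3 Eif5b sets lie above 0 in both.

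For most factors the numbers differed more than the lines. The median size of the difference between lines was 0.25 on the log2 scale (0.25 over all genes) and that between numbers 0.45 (0.34 over all genes), and the latter was the larger for 32 of 48 members and for 4821 of 8930 genes. The 18S rRNA probe set read 677 and 136 on the number 1 arrays of control and LIN28A and 9.20 and 11.3 on those of number 2, and the spike-in BioB 524 and 269 against 165 and 161. Control 1 had the highest beta-actin 3' to 5' ratio, 4.71, against 2.76 to 3.37 on the other arrays. Their part in the differences of the factors was not tested.

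Cell markers were read in the same RNA. Over 7 neural markers the summed signal was 1298 and 1969 in control and 1152 and 1897 in LIN28A. These markers did not move together. Map2 (-0.61 and -1.36) and Elavl3 (-0.22 and -0.19) lay lower in LIN28A in both numbers. Nes, Pax6 and Sox1 were higher in number 1 and lower in number 2, and Tubb3 and Ncam1 the reverse. Over 5 embryonal carcinoma markers the summed signal was 1791 to 2192, with Zfp42 at 0.20 to 5.80. Most of that sum was Sox2 (1902 and 1697 in control, 1557 and 1295 in LIN28A), so it hides the spread of the other markers. Sox2 is also a neural progenitor gene, so the sum is no measure of embryonal carcinoma cells alone. Within that list Sall4 read 16.4 and 2.10 in control against 194 and 83.1 in LIN28A. Pou5f1 read 30.3 and 374 in control against 28.7 and 775 in LIN28A, higher in number 2 of both lines. Nanog read 70.8 and 5.70 in control against 10.4 and 37.8 in LIN28A, lower in LIN28A in number 1 and higher in number 2. Over 4 fibroblast and smooth muscle markers the summed signal was 164 and 91.7 in control and 249 and 322 in LIN28A. Over 4 endoderm markers it was 18.1 to 38.2 and over 4 blood markers 7.20 to 12.3. No marker read exactly 0. The part of these in the factor values was not tested, and fewer cells of a type and less RNA per cell cannot be told apart in such bulk samples. Endogenous mouse Lin28a, whose probes are no check of the human transgene, read 30.7 and 76.2 in control against 56.1 and 37.5 in LIN28A.

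Of 31 further genes of the translation pathway listed from general knowledge, 29 were measured and Rptor and Rps6kb1 were not analysed here. None was called (limma's adjusted p under 0.05 for 0 higher and 0 lower, and unadjusted p under 0.05 for 0), with 11 above and 18 below 0 and a median of -0.08. Both LIN28A arrays were higher for 5 (Denr, Dohh, Eif2ak4, Gspt1, Mknk2), which is 17.2% beside 11.5% of all genes, and lower for 4 (Dhps, Pabpc1, Paip2, Ppp1r15a), which is 13.8% beside 16.6%. Denr, which recycles the small subunit and aids reinitiation, read 557 and 467 in control against 853 and 715 in LIN28A. Both LIN28A arrays were the higher ones, by 0.60 in each number (pooled 0.60 ± 0.29 SE), and the pooled value was 0.335 with its probe sets averaged. Gspt1, the release factor eRF3, read 416 and 594 in control against 601 and 798 in LIN28A, with LIN28A 1 just above control 2 and a difference of 0.47 ± 0.33 (SE), or 0.22 without control 1, 0.265 without LIN28A 2 and 0.271 with its probe sets averaged. Mknk2, a kinase of eIF4E, read 407 and 399 in control against 478 and 736 in LIN28A, again both higher, with 0.22 in number 1 and 0.86 in number 2, and the pooled 0.54 was 0.24 without LIN28A 2.

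Ppp1r15a, which directs the dephosphorylation of eIF2 alpha, read 94.8 and 103 in control against 62.4 and 55.7 in LIN28A. Both LIN28A arrays lay below both control arrays, with a difference of -0.62 ± 0.28 (SE). Paip2, an inhibitor of the poly(A)-binding protein, read 1743 and 1640 in control against 1201 and 1410 in LIN28A, and Pabpc1, that protein's gene, read 4674 and 4498 in control against 3770 and 3442 in LIN28A. The LIN28A arrays were the lower ones for both genes, by -0.37 ± 0.28 and -0.35 ± 0.28 (SE), the latter -0.11 under quantile normalization and -0.06 with its probe sets averaged. Ddit3, the stress transcription factor CHOP, read 80.3 and 597 in control against 63.8 and 88.9 in LIN28A. Control 2 alone was high, with a difference of -0.27 in number 1 and -2.55 in number 2 (pooled -1.41 ± 0.84 SE, and -0.07 without control 2). Atf4, the transcription factor translated when eIF2 alpha is phosphorylated, and like Pabpc1 chosen after its values were seen, read 674 and 1948 in control against 768 and 810 in LIN28A. It too was high on control 2, as was Eif4ebp1 above, and its pooled difference of -0.53 was 0.22 without that array. Eif2ak3, the eIF2 alpha kinase PERK, also chosen after its values were seen, read 69.4 and 169 in control against 64.4 and 133 in LIN28A, with number 2 the higher in both lines. Its difference of -0.20 was 0.36 without control 2 and 0.25 without LIN28A 1.

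**Figure D5:**
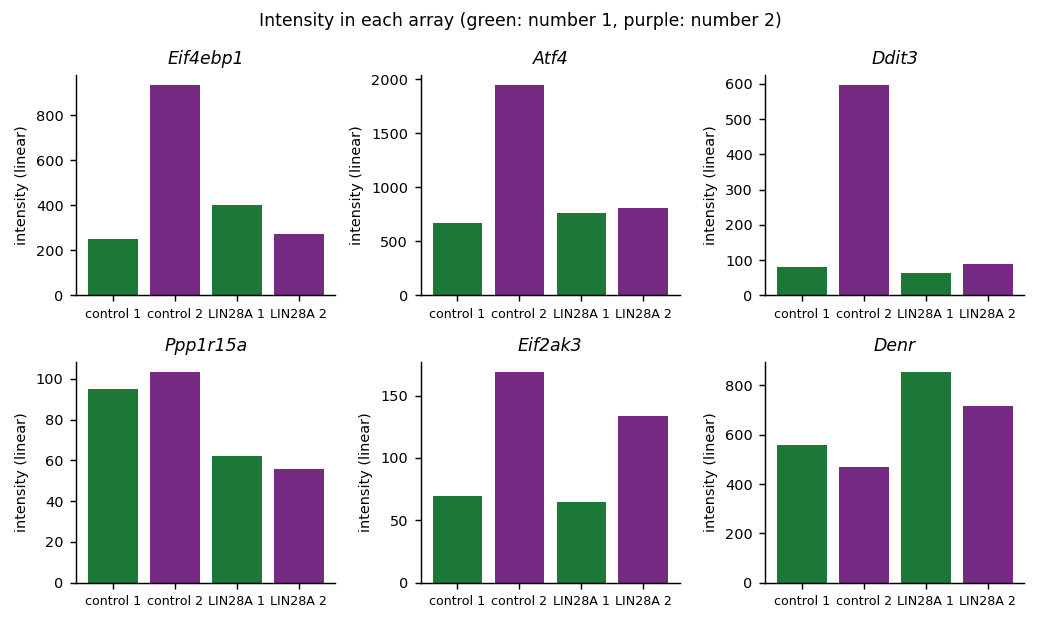
Deposited intensity (linear axis from 0) on each of the 4 arrays for Eif4ebp1 and 5 genes of the translation pathway outside the factor families, 1 bar per array, green for number 1 and purple for number 2. Denr lies higher and Ppp1r15a lower on both LIN28A arrays, Eif4ebp1, Atf4 and Ddit3 are high on control 2, and Eif2ak3 is high on number 2 of both lines.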

How the data were processed

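RNA of 2 lines was measured on 4 Affymetrix 1-colour arrays. Per the labels' protocols, an oligo(dT) primer started cDNA synthesis and in vitro transcription gave biotin-labelled cRNA. The authors deposited intensity on a linear scale for 22690 probe sets, and the summary software was not given in the sources used here. Each array's mean, with 2% trimmed at either end, was 150.1, so the values were used as scaled. Precision is limited by the number of arrays.

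The 64 control probe sets were left out. Values became log2(value + 16), and probe sets whose mean lay under the 30th percentile (about 8.04 on the linear scale) were left out. Lines were compared with limma 3.58.1 in R 4.3.3 (lmFit, eBayes, no block), with Benjamini-Hochberg adjustment over 15838 probe sets and a threshold of 0.05. Each SE given is the moderated one of that fit. The procedure was also run on simulated arrays with less noise than these, no difference between numbers and larger effects than those of the members. That run therefore says nothing about power in these data. Another 6 probe sets carry several symbols that include a factor and were not named.

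The members and lists were chosen with earlier results of these data known. Values in every array are given for the member with the highest mean and those with the largest rise and fall of 1 sign in both numbers in each complex, for members whose groups do not overlap, for the paralogue pairs, and for the 6 other pathway genes with the smallest unadjusted p. Genes beyond this rule are named as such.

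Same-numbered arrays deviated together (r = 0.619 over 15838 probe sets), but they share only a number in the labels, so no block was used. Alternatives were quantile normalization, median centring, pseudocounts of 1 and 64, no filter and one at the 50th percentile, probe sets averaged per gene, the replicate block, and leaving out each array.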

Additional observations from a re-analysis of the deposited data

How the results depend on the processing

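No factor was called under any alternative run. The 40 genes given with their value on every array in the 2 lines (Lin28a and the cell markers left out) had a lowest adjusted p of 0.57 (limma), and 19 of them kept their direction throughout. The cause of each change was not tested. Members higher on both LIN28A arrays numbered 8 under quantile normalization and 8 to 15 with 1 array left out (16.7% to 31.2%, where 24.5% to 33.3% of all genes did). Members lower on both numbered 1 under median centring and 11 to 19 with 1 array left out (22.9% to 39.6%, where 30.6% to 40.6% of all genes did). With fewer arrays more genes separate. With 1 array left out the medians ranged from -0.337 to 0.143 (eIF1/1A/5), -0.395 to 0.061 (eIF3), -0.102 to 0.009 (eIF4) and -0.192 to 0.084 (eEF1 and eEF2). The median of all members ranged from -0.163 to 0.042 with 1 array left out and was 0.046 under median centring. The eEF1 and eEF2 median was 0.039 under quantile normalization and 0.011 under median centring. The eIF2/2B median was 0.154 and that of eIF5A/5B/6 0.384 under median centring, and that of eIF4 was 0.075 under quantile normalization and 0.094 under median centring. Those fits without 1 array had no block and unequal numbers between the lines, so part of the difference between numbers entered them.

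With the replicate block, 1 probe set was called higher and 0 lower over the whole array, and 0 members in either direction. At an unadjusted p under 0.05 the block gave 1 member lower, Eif3h (unadjusted p = 0.028, adjusted p = 0.57, limma). A pseudocount of 64 gave 1 member higher at the same limma threshold.

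Single genes turned direction as follows. Under quantile normalization the difference was 0.025 for Eef1a1, 0.006 for Eif4a1, 0.169 for Eif4g2, 0.217 for Eif5a and 0.053 for Eef2. Under median centring it was 0.066 for Eif2s2, 0.083 for Eif2s3x, 0.046 for Eif4g2, 0.002 for Eif5a and 0.079 for Eef2. With probe sets averaged it was 0.038 for Eif2s2, 0.397 for Eif4a1, -0.003 for Eif4e2, 0.026 for Eif4g2, 0.101 for Eif5a and -0.268 for Eif3a. With 1 array left out the ranges were -0.897 to 0.102 for Eef1a1, -0.561 to 0.176 for Eef1a2, -0.969 to 0.079 for Eef1b2, -0.402 to 0.279 for Eif2s2, -0.120 to 0.032 for Eif2s3x, -0.827 to 0.256 for Eif3i, -0.354 to 0.003 for Eif4a1, -1.184 to 0.172 for Eif4a2, -0.097 to 0.731 for Eif4e2, -0.476 to 0.314 for Eif4g2, -0.664 to 0.164 for Eif5, -0.462 to 0.213 for Eif5a, -1.448 to 0.392 for Eif4ebp1, -0.377 to 1.085 for Eef1akmt1, -0.899 to 0.168 for Eif3e, -0.137 to 0.365 for Eif3a, -0.395 to 0.088 for Eif3c, -0.485 to 0.389 for Eef2, -0.279 to 0.854 for Eif4e, -1.287 to 0.222 for Atf4 and -0.752 to 0.360 for Eif2ak3.

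The filter and the block cannot change a median over leading probe sets and were not run for those. Pseudocounts, filters and the block were not run for the counts of non-overlapping members.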
